A study of Sus scrofa with 6 samples.

Results

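The 10 genes described here encode proteins by which epithelial cells adhere to each other, with the regulator and the filament protein usually read beside them. They are CDH1, CDH2, EPCAM, CLDN6, CLDN7, OCLN, TJP1, CTNNB1, ESRP1 and VIM, chosen by gene symbol, and each of the 10 has a row among the 31908 genes of the deposited table. Levels were measured by sequencing poly(A) RNA of pig (Sus scrofa) embryonic stem cells labelled wild type and kept in a medium that the labels call FIW. PA_1 and PA_3 are parthenogenetic (PA) lines, from embryos that arise when an egg is activated without sperm, and IVF_1 is a line from in vitro fertilisation (IVF). Each line gave 2 libraries, 6 in all. The labels give no treatment and no difference in culture between the lines, and do not say whether feeder cells were present. Nor do they say whether the libraries of a line came from separate cultures, so the p-values measure the spread between libraries only, which may be technical. Each line is 1 derivation and IVF_1 is the only line from a fertilised embryo, so the comparisons are between lines, and the origin of the embryo and the line cannot be told apart.

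Epithelial cells are joined at their sides by belts of adherens and tight junctions. In adherens junctions, cadherins of neighbouring cells bind each other and hold beta-catenin, and through alpha-catenin the actin cytoskeleton, at the membrane. In tight junctions, claudins and occludin close the space between cells and bind the scaffold protein ZO-1. The pluripotent epiblast is itself an epithelium that holds E-cadherin, and as its cells enter the primitive streak they go through an epithelial to mesenchymal transition (EMT), in which E-cadherin is replaced by N-cadherin and vimentin increases.

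Library totals ran from 15248306 to 28575817 counts, and the libraries of a line correlated at 0.995 to 0.997 (Pearson r of log2(CPM + 1) across 15197 genes, which are not independent replicates). The libraries of PA_1 differed from each other more than those of the other lines, with a chi-square of counts per degree of freedom of 11.3 against 4.25 in PA_3 and 2.71 in IVF_1. Mitochondrial genes took 12.15% to 12.23% of counts in PA_3 and 7.67% to 9.65% in the other lines. The label of embryonic stem cells was checked on markers of pluripotent cells, of which 6 of 8 were matched in the table (SOX2 and SALL4 were not). All 6 passed the filter on low counts, with summed levels of 4377 to 4457 CPM in IVF_1, 2613 to 2646 in PA_1 and 2777 to 2878 in PA_3, and POU5F1, which encodes OCT4, was high in each line (811 ± 39.1 CPM in IVF_1, 637 ± 40.6 in PA_1 and 836 ± 62.9 in PA_3; ± is the SD of 2 libraries throughout). CPM are counts relative to library size after TMM scaling, which sets the libraries to a common scale from the bulk of the genes.

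All 10 genes were well expressed. Within a library, levels of different genes were compared in TPM, the authors' values per gene length. CLDN6 had the highest TPM of the 10 in both IVF_1 libraries (636 and 620.3 TPM), ahead of CTNNB1 with 397 and 404 and VIM with 308 in each. VIM had the highest TPM in both PA_3 libraries (509.8 and 519 TPM) and in replicate 1 of PA_1 (537), and CTNNB1 in replicate 2 of PA_1 (453). OCLN had the lowest TPM in each of the 6 libraries, from 13.3 to 29.7. CLDN7 and ESRP1 held the ranks just above OCLN in each library. In TPM rank among the 31871 nuclear genes of the table, CLDN6 lay in the top 0.543% to 0.866% and OCLN in the top 13.6% to 20.1%. TPM cannot be set side by side between lines without care, because mitochondrial genes took 32.64% to 33.16% of the TPM in PA_3 and 18.41% to 22.6% in the other lines. The levels compared between lines below are therefore CPM after TMM scaling, which are not corrected for gene length.

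**Figure D1:**
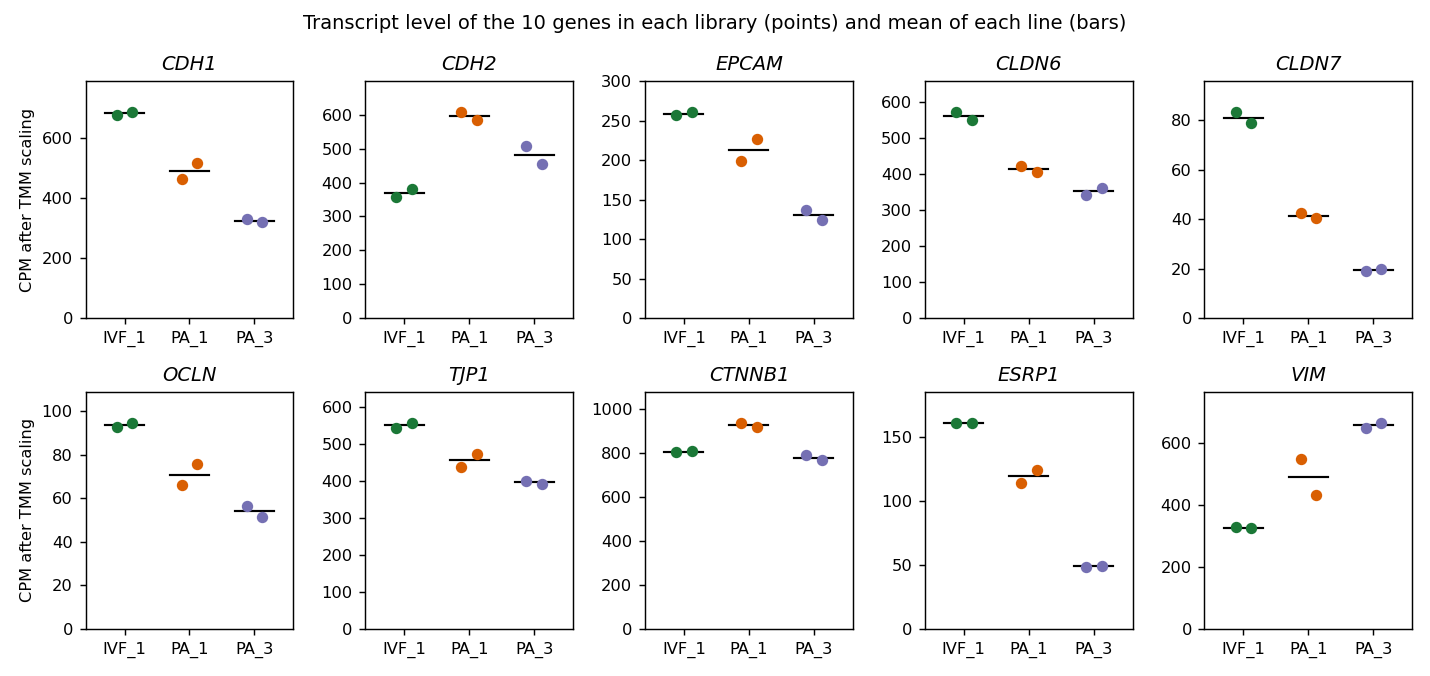
CPM after TMM scaling (y axis, from 0, own scale in each panel) of the 10 genes in the 6 libraries, with the lines on the x axis, a point for each library and a bar at the mean of each line. The levels of 7 genes step down from IVF_1 to PA_1 to PA_3 with no overlap between lines, VIM steps up, and CDH2 and CTNNB1 are highest in PA_1.

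CDH1, which encodes E-cadherin, the cadherin of epithelia (chromosome 6, 18075480 to 18155986, minus strand, Sscrofa11.1, ENSSSCG00000025652), was highest in the fertilised line and lowest in PA_3. It stood at 676 and 685 CPM in the IVF_1 libraries, 464 and 516 in PA_1, and 328 and 318 in PA_3. The ranges of the lines did not overlap. PA_1 held 72.0% of the IVF_1 level (95% interval 65.3% to 79.3%; log2 fold change -0.47, SE 0.066, edgeR adjusted p = 4.3e-05), and PA_3 held 47.4% (43.0% to 52.3%; -1.08, SE 0.067, adjusted p = 1.4e-09). The difference between the parthenogenetic lines was itself called (0.60 higher in PA_1, SE 0.066, adjusted p = 2.4e-06). Both comparisons with IVF_1 use the same IVF_1 libraries, here and for each gene below. In RNA of whole cultures, fewer cells of a type and less RNA per cell cannot be told apart.

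CDH2, which encodes N-cadherin, the cadherin of neural and mesenchymal cells (chromosome 6, 112396721 to 112628432, minus strand, ENSSSCG00000003722), ran the other way against IVF_1. Its levels were 357 and 379.7 CPM in IVF_1, 608 and 585 in PA_1, and 508 and 454 in PA_3. All 4 parthenogenetic libraries were above both IVF_1 libraries, and PA_1 was above PA_3. CDH2 rose by 0.69 in PA_1 (SE 0.069, adjusted p = 1.1e-06), to 162% of IVF_1, and by 0.38 in PA_3 (SE 0.069, adjusted p = 2.0e-04), to 131%. On deposited TPM the PA_3 value was 0.11 and not called (limma adjusted p = 0.35, the highest of 14 alternatives that began at 9.6e-08), a scale on which the median of all genes in PA_3 against IVF_1 was itself at -0.21. PA_1 was above PA_3 by 0.31 (SE 0.068, adjusted p = 0.0019), a call lost without replicate 2 of PA_3 (adjusted p = 0.066, the highest of 14 alternatives that began at 1.2e-04).

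Against IVF_1 the cadherins thus differed in opposite directions, while both were higher in PA_1 than in PA_3. Per gene length, CDH1 transcripts outnumbered CDH2 transcripts in IVF_1, with 1.34 and 1.26 times the TPM in its libraries. In PA_1 the ratio was 0.545 and 0.622, and in PA_3 it was 0.443 and 0.483. On a log2 scale the ratio was 0.38 ± 0.061 in IVF_1, -0.78 ± 0.14 in PA_1 and -1.11 ± 0.087 in PA_3, so the sign differed between IVF_1 and both other lines in every library. With 2 libraries against 2, an exact permutation test of such a ratio cannot give a p below 0.333, and none is given.

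**Figure D2:**
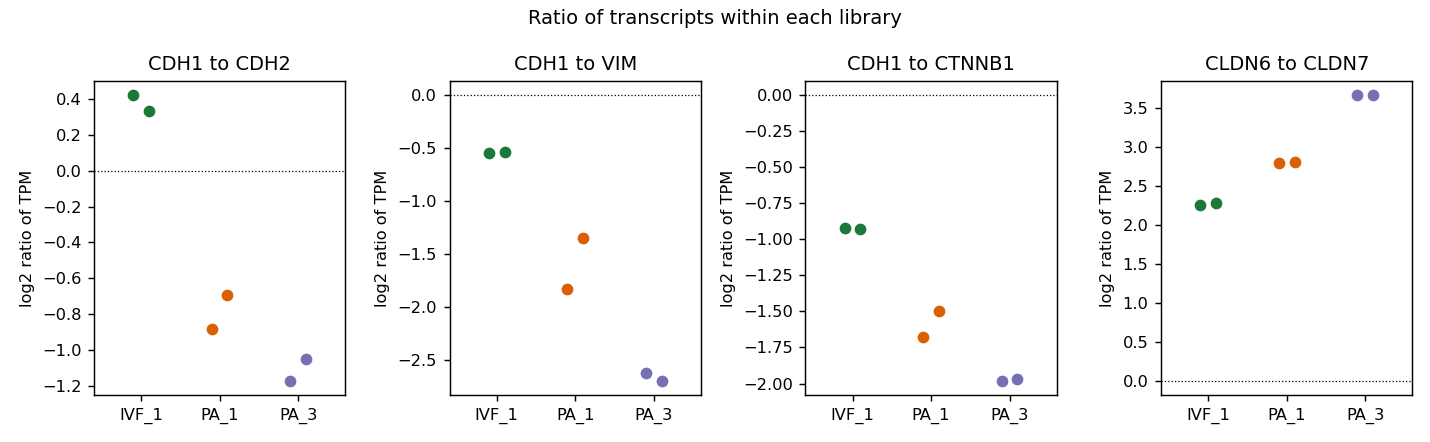
Log2 ratio of the deposited TPM of gene pairs within each library (y axis, own scale in each panel), by line, with a point for each library and a dotted line at equal levels. CDH1 exceeded CDH2 in both IVF_1 libraries (1.34 and 1.26) and fell short of it in the other 4, and CDH1 to VIM was lowest in PA_3.

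EPCAM and the claudins form a group on the membrane. EPCAM is a cell surface glycoprotein of epithelia and pluripotent cells that binds CLDN7 and steadies it there (chromosome 3, 93168852 to 93185653, minus strand, ENSSSCG00000008429). It stood at 257 and 261 CPM in IVF_1, 199 and 227 in PA_1, and 137 and 124 in PA_3. The PA_3 libraries were the lowest and no lines overlapped. EPCAM fell by 0.99 in PA_3 (SE 0.076, adjusted p = 1.9e-08), to 50.4% of IVF_1 (95% interval 45.2% to 56.4%). In PA_1 it fell by 0.28 (SE 0.075, adjusted p = 0.0081), to 82.1%. That call was lost with limma on TPM, with or without rescaling of nuclear genes. EPCAM was not called in PA_1 without replicate 1 (adjusted p = 0.068) or replicate 2 (0.076) of IVF_1, in a range of 7.1e-05 to 0.13 over 14 alternatives. PA_1 was above PA_3 by 0.70 (SE 0.075, adjusted p = 1.7e-06).

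CLDN7, a claudin of many simple epithelia (chromosome 12, 52612507 to 52628362, minus strand, ENSSSCG00000017934), showed the largest fold difference of the 10 genes in both comparisons with IVF_1. Its levels were 83.3 and 78.7 CPM in IVF_1, 42.4 and 40.4 in PA_1, and 18.9 and 20 in PA_3. The libraries of a line lay close together and far from those of the next line. PA_1 held 51.2% of the IVF_1 level (-0.97, SE 0.081, adjusted p = 1.7e-07) and PA_3 held 24% (-2.06, SE 0.086, adjusted p = 6.8e-12, 95% interval 21.2% to 27.2%). PA_1 exceeded PA_3 by 1.09 (SE 0.087, adjusted p = 4.9e-08).

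CLDN6 is a claudin of early embryonic epithelia and pluripotent cells that most adult tissues lack (chromosome 3, 39167853 to 39172629, plus strand, ENSSSCG00000023743). Its levels were 573 and 552 CPM in IVF_1, 422 and 407 in PA_1, and 343 and 363 in PA_3. The order of the lines was that of CLDN7, with smaller steps. CLDN6 fell by 0.44 in PA_1 (SE 0.063, adjusted p = 5.5e-05) and by 0.67 in PA_3 (SE 0.063, adjusted p = 2.1e-07), to 73.7% and 62.8% of IVF_1. The step between PA_1 and PA_3 was 0.23 (SE 0.063, adjusted p = 0.0084), and its call was lost without replicate 1 of PA_3 (adjusted p = 0.12, the highest of 14 alternatives that began at 0.0012). Per gene length, CLDN6 was at 4.77 and 4.87 times CLDN7 in IVF_1, 6.91 and 7.0 times in PA_1, and 12.6 times in each PA_3 library. The CLDN6 model overlaps models of THOC6 and TNFRSF12A on the opposite strand. The kit marks strand per the labels, but the strand setting of the counting is not given in the sources used here.

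OCLN and TJP1 stand for the tight junction strand and its scaffold. OCLN encodes occludin (chromosome 16, 47600498 to 47654033, plus strand, ENSSSCG00000021514), at 92.6 and 94.7 CPM in IVF_1, 66.2 and 75.6 in PA_1, and 56.5 and 51.5 in PA_3. Again the lines did not overlap, and PA_3 was the lowest. OCLN fell by 0.41 in PA_1 (SE 0.082, adjusted p = 0.0013) and by 0.80 in PA_3 (SE 0.083, adjusted p = 7.1e-07), to 75.5% and 57.6% of IVF_1. The PA_1 call was lost with limma on TPM with nuclear genes rescaled (-0.34, adjusted p = 0.05, not under the threshold and the highest of 14 alternatives that began at 1.0e-05). PA_1 was above PA_3 by 0.39 (SE 0.083, adjusted p = 0.0014).

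TJP1 encodes ZO-1, which ties claudins and occludin to actin (chromosome 1, 144930368 to 145195836, minus strand, ENSSSCG00000004854). It stood at 544 and 558 CPM in IVF_1, 439 and 474 in PA_1, and 401 and 393 in PA_3. The lines kept the same order, with narrower gaps than for the other tight junction genes. TJP1 fell by 0.47 in PA_3 (SE 0.064, adjusted p = 1.2e-05), to 72.1% of IVF_1. It fell by 0.27 in PA_1 (SE 0.064, adjusted p = 0.0038), to 82.9%. That call was lost without replicate 2 of IVF_1. It was also lost with limma on TPM, with or without rescaling of nuclear genes, where adjusted p reached 0.11. The step of 0.20 between PA_1 and PA_3 (SE 0.063, adjusted p = 0.02) lost its call without replicate 1 or replicate 2 of PA_3. That call was also lost with limma on TPM with nuclear genes rescaled.

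CTNNB1 encodes beta-catenin, which holds cadherins to alpha-catenin and also carries WNT signals to the nucleus (chromosome 13, 25137173 to 25208311, plus strand, ENSSSCG00000011274). It varied least of the 10 genes in PA_3 against IVF_1, at 806 and 809 CPM in IVF_1, 939.9 and 918 in PA_1, and 792 and 768 in PA_3. In PA_3 against IVF_1 the log2 fold change was -0.05 (SE 0.061, adjusted p = 0.52, 95% interval -0.18 to 0.079), or 96.6% of IVF_1 (88.4% to 106%), so a change on the scale of that of CDH1 lies outside the interval. On deposited TPM, where the median of all genes was at -0.21, the value was -0.33 and called (limma adjusted p = 0.01, the lowest of 14 alternatives that reached 0.84). In PA_1, CTNNB1 rose by 0.20 (SE 0.061, adjusted p = 0.018), which was not called without replicate 1 or replicate 2 of IVF_1. That rise was also not called with limma on TPM, with or without rescaling of nuclear genes. PA_1 was above PA_3 by 0.25 (SE 0.061, adjusted p = 0.0038), lost without replicate 2 of PA_3 (adjusted p = 0.066, the highest of 14 alternatives that began at 2.0e-04). CDH1 was at 0.528 and 0.526 times CTNNB1 per gene length in IVF_1, at 0.313 and 0.353 in PA_1 and at 0.254 and 0.255 in PA_3. The CTNNB1 model overlaps ULK4 on the opposite strand and an unnamed model on its own strand, neither above 652 counts in a library, against 12363 or more for CTNNB1.

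ESRP1 encodes an RNA-binding protein that sets epithelial splice forms, among them those of FGFR2, CD44 and CTNND1 (chromosome 4, 41993944 to 42061236, minus strand, ENSSSCG00000006099). Both IVF_1 libraries stood at 161 CPM, the PA_1 libraries at 114 and 124, and the PA_3 libraries at 48.6 and 49.0. The gap between PA_1 and PA_3 was wider than that between IVF_1 and PA_1. ESRP1 fell by 0.44 in PA_1 (SE 0.070, adjusted p = 1.7e-04), to 73.8% of IVF_1, and by 1.72 in PA_3 (SE 0.073, adjusted p = 8.0e-12), to 30.3% (95% interval 27.3% to 33.8%). PA_1 was above PA_3 by 1.28 (SE 0.073, adjusted p = 7.1e-10), the largest difference of the 10 genes between the parthenogenetic lines. The table gives counts per gene, so splice forms were not analysed here.

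VIM encodes vimentin, the intermediate filament protein of mesenchymal and many cultured cells (chromosome 10, 43517307 to 43526172, plus strand, ENSSSCG00000011033). It stood at 328 and 325 CPM in IVF_1, 548 and 434 in PA_1, and 649 and 666 in PA_3. The lines did not overlap, and the PA_1 libraries lay further apart than those of the other lines. VIM rose by 0.59 in PA_1 (SE 0.086, adjusted p = 9.3e-05), to 151% of IVF_1, and by 1.01 in PA_3 (SE 0.086, adjusted p = 1.4e-07), to 202%. PA_1 was below PA_3 by 0.42 (log2 fold change -0.42, SE 0.085, adjusted p = 0.0012), and on deposited TPM the value was -0.14 and not called (limma adjusted p = 0.4, the highest of 14 alternatives that began at 7.5e-10), where the median of all genes in PA_1 against PA_3 was at 0.23. With nuclear genes rescaled before limma, where that median was 0.046, the value was -0.38 and also not called (adjusted p = 0.05, not under the threshold). CDH1 per gene length was at 0.681 and 0.688 times VIM in IVF_1, 0.282 and 0.392 in PA_1, and 0.162 and 0.154 in PA_3. With mitochondrial genes left out before scaling, VIM in PA_3 against IVF_1 remained at 1.01.

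**Figure D3:**
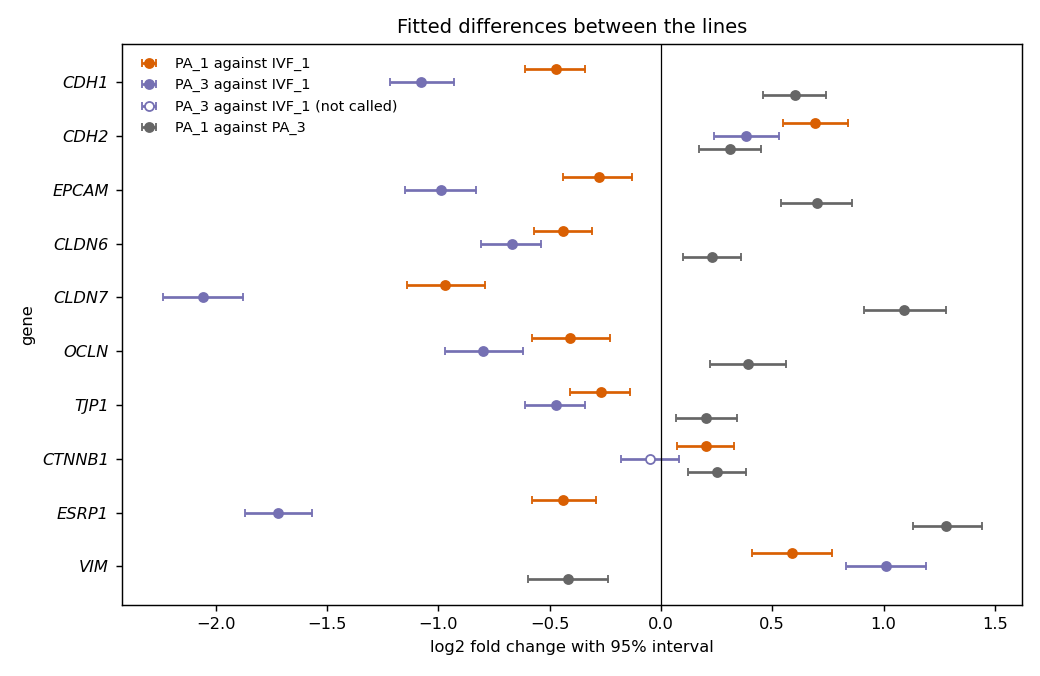
Log2 fold change (x axis) of the 10 genes (y axis) in PA_1 against IVF_1, PA_3 against IVF_1 and PA_1 against PA_3, from the edgeR fit, with 95% intervals; filled points passed adjusted p 0.05. CLDN7 at -2.06 and ESRP1 at -1.72 in PA_3 against IVF_1 lie furthest to the left, and the interval of CTNNB1 in PA_3 against IVF_1 spans 0.

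Counted together, 7 of the 10 genes were lower and 3 higher in PA_1 than in IVF_1, against 31.4% of all 15197 tested genes called in that comparison. In PA_3, 7 were lower, 2 higher and 1 not called, against 52.1% of all tested genes. PA_1 was higher than PA_3 for 9 and lower for 1, against 36.8% of all tested genes. The median log2 fold change was -0.34, -0.74 and 0.35 in the same order, where the median of all tested genes was 0.00 in each comparison to 2 decimals. All 10 genes passed the filter on low counts, and abundant genes are called more often: among the 4514 genes at or above 47.3 CPM, the lowest mean of the 10, the called shares were 35.7%, 59.0% and 40.8%. Of these abundant genes 21.8% were lower in PA_1 than in IVF_1 and 13.8% higher, 36.4% and 22.6% in PA_3, and 17.4% were lower and 23.4% higher in PA_1 than in PA_3. No member reached a 2-fold difference in PA_1 against IVF_1, where CLDN7 at -0.97 was the nearest and 6.62% of all genes were called at that size. In PA_3, 4 did (CDH1, CLDN7, ESRP1 and VIM), against 13.1% of all genes, and 2 did between PA_1 and PA_3 (CLDN7 and ESRP1), against 8.32%. The libraries of the lines did not overlap for any of the 10 genes in any comparison, which was also so for 64.8%, 78.9% and 66.7% of all tested genes. The levels of 7 genes (CDH1, EPCAM, CLDN6, CLDN7, OCLN, TJP1 and ESRP1) ran from IVF_1 down through PA_1 to PA_3 with no overlap, an order that 10.8% of tested genes showed. All 7 were called lower in both parthenogenetic lines and lower in PA_3 than in PA_1, as were 2.98% of tested genes. VIM ran up in that order, as did 11.1% of tested genes.

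The counts of each list below stand against these shares of all tested genes. In PA_1 against IVF_1, 15.3% were called higher and 16.1% lower. In PA_3 against IVF_1 the shares were 25.9% and 26.2%, and in PA_1 against PA_3 they were 17.8% and 19.0%. The cadherin family was split. Of 12 tested cadherin genes, CDH1 and CDH2 included, 4 were higher in PA_1 than in IVF_1 and 4 lower, 2 higher and 6 lower in PA_3, and 8 higher in PA_1 than in PA_3 and 0 lower. CDH3, the P-cadherin of embryonic and basal epithelia, stood at 36.4 and 34.2 CPM in IVF_1, 16.9 and 14.2 in PA_1, and 8.06 and 7.62 in PA_3. It fell by 1.17 in PA_1 and by 2.17 in PA_3 (adjusted p = 7.2e-07 and 2.9e-10). CDH6, a cadherin of kidney and neural epithelia, was lowest in PA_3, with 27.4 and 26.8 CPM in IVF_1, 33.5 and 38.0 in PA_1, and 3.61 and 3.35 in PA_3, and PA_1 was above PA_3 by 3.35 (SE 0.13, adjusted p = 1.9e-12).

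Partners of the cadherins also went both ways. Of 15 tested catenins and adherens junction genes, CTNNB1 included, 5 were higher in PA_1 than in IVF_1 and 4 lower, 4 higher and 5 lower in PA_3, and 4 higher in PA_1 than in PA_3 and 1 lower. JUP, which encodes plakoglobin of adherens junctions and desmosomes, stood at 177 ± 4.93 CPM in IVF_1, 135 ± 7.33 in PA_1 and 110.1 ± 9.36 in PA_3, and fell by 0.39 and 0.68 (adjusted p = 8.4e-04 and 1.2e-06). VCL, which encodes the actin linker vinculin, fell by 0.41 and 0.57 (adjusted p = 2.3e-04 and 3.5e-06). CTNNA2, the neural alpha-catenin, rose from 23.7 ± 1.11 CPM to 50.2 ± 0.193 in PA_1 and 41.9 ± 2.91 in PA_3 (1.08 and 0.82, adjusted p = 2.1e-07 and 1.8e-06). CTNND2, the neural delta-catenin, rose by 0.61 and 0.72 (adjusted p = 3.0e-05 and 1.9e-06).

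Among 11 tested claudins, CLDN6 and CLDN7 included, 2 were higher in PA_1 than in IVF_1 and 4 lower, 0 higher and 5 lower in PA_3, and 5 higher in PA_1 than in PA_3 and 1 lower. CLDN4, an epithelial claudin, stood at 63.0 and 57.1 CPM in IVF_1, 19.3 and 20.3 in PA_1, and 17.0 and 21.2 in PA_3, a fall of 1.60 and 1.65 (adjusted p = 1.3e-08 and 2.8e-09). Its PA_1 and PA_3 libraries overlapped, unlike those of CLDN6 and CLDN7. CLDN10 fell by 0.67 and 0.66 (adjusted p = 0.0021 and 0.001).

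Of 18 tested tight junction membrane and scaffold genes, OCLN and TJP1 included, 4 were higher and 8 lower than IVF_1 in each parthenogenetic line, and 9 were higher in PA_1 than in PA_3 and 4 lower. F11R, which encodes the junctional adhesion molecule JAM-A, had the smallest adjusted p of these genes against IVF_1. It stood at 572 and 573 CPM in IVF_1, 274 and 299.7 in PA_1, and 206 and 196 in PA_3, a fall of 1.00 (SE 0.066, adjusted p = 1.1e-08) and 1.51 (SE 0.067, adjusted p = 1.5e-11). MAGI1, a scaffold of tight junctions, fell by 0.35 and 0.73 (adjusted p = 0.0015 and 3.7e-07).

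Desmosome genes were mostly lower in PA_3, where 26.2% of all tested genes and 36.4% of the 4514 abundant genes were lower. Of 8 tested, 1 was lower and 0 higher in PA_1 than in IVF_1, 7 were lower and 0 higher in PA_3, and 5 were higher in PA_1 than in PA_3 and 0 lower. DSC2 and DSG2, the desmosomal cadherins, fell in PA_3 by 0.58 and 0.34 (adjusted p = 2.0e-06 and 7.7e-04), and in PA_1 stood at 0.028 and 0.12 (adjusted p = 0.78 and 0.2). DSP, which encodes desmoplakin and had the highest TPM of the list, stood at 654 ± 15.8 CPM in IVF_1, 534 ± 20 in PA_1 and 584 ± 13.8 in PA_3, with a log2 fold change of -0.29 in PA_1 (adjusted p = 0.002) and -0.16 in PA_3 (adjusted p = 0.038). The DSP call in PA_1 was lost in both limma fits on TPM. That in PA_3 was lost without the filter on low counts, with the replicate block and with limma after rescaling nuclear genes. Both DSP calls were lost in leave-one-library-out fits, with adjusted p of 0.052 in PA_1 without replicate 1 of IVF_1 and from 0.1 to 0.24 in PA_3 without any 1 of the libraries of PA_3 and IVF_1. Over 14 alternatives the DSP values ran from 1.2e-04 to 0.069 in PA_1 and from 0.0038 to 0.24 in PA_3.

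Of 4 tested gap junction genes, 2 were lower in PA_3, and 2 were higher in PA_1 than in PA_3 and 1 lower. GJA1, which encodes a connexin of many tissues, stood at 52.3 and 52.7 CPM in IVF_1, 44.0 and 57.2 in PA_1, and 23.0 and 22.3 in PA_3, a fall of 1.21 in PA_3 (adjusted p = 1.5e-07), and in PA_1 all 4 were not called, GJA1 at -0.062 (adjusted p = 0.69). Of 16 tested polarity genes, 2 were higher and 2 lower in PA_1 and 0 higher and 6 lower in PA_3, while 3 were higher in PA_1 than in PA_3 and 1 lower. CRB2, a Crumbs protein of the apical membrane, fell by 0.35 in PA_3 (adjusted p = 0.0023), and stood 0.54 higher in PA_1 than in PA_3 (adjusted p = 6.8e-05).

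Taking the adherens, tight, desmosome, gap junction and polarity lists together without the 10 genes, 77 others were tested. In PA_1 against IVF_1, 19.5% of them were higher and 23.4% lower, where all tested genes had 15.3% and 16.1%. In PA_3 against IVF_1, 11.7% were higher and 44.2% lower, where all tested genes had 25.9% and 26.2%. In PA_1 against PA_3, 37.7% were higher and 10.4% lower, where all tested genes had 17.8% and 19.0%. Among the 4514 genes at or above 47.3 CPM, the higher and lower shares were 13.8% and 21.8%, 22.6% and 36.4%, and 23.4% and 17.4%, in the same order. The 77 genes were not held to that level. The medians of the 77 genes were -0.027, -0.15 and 0.14 on the log2 scale.

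**Figure D4:**
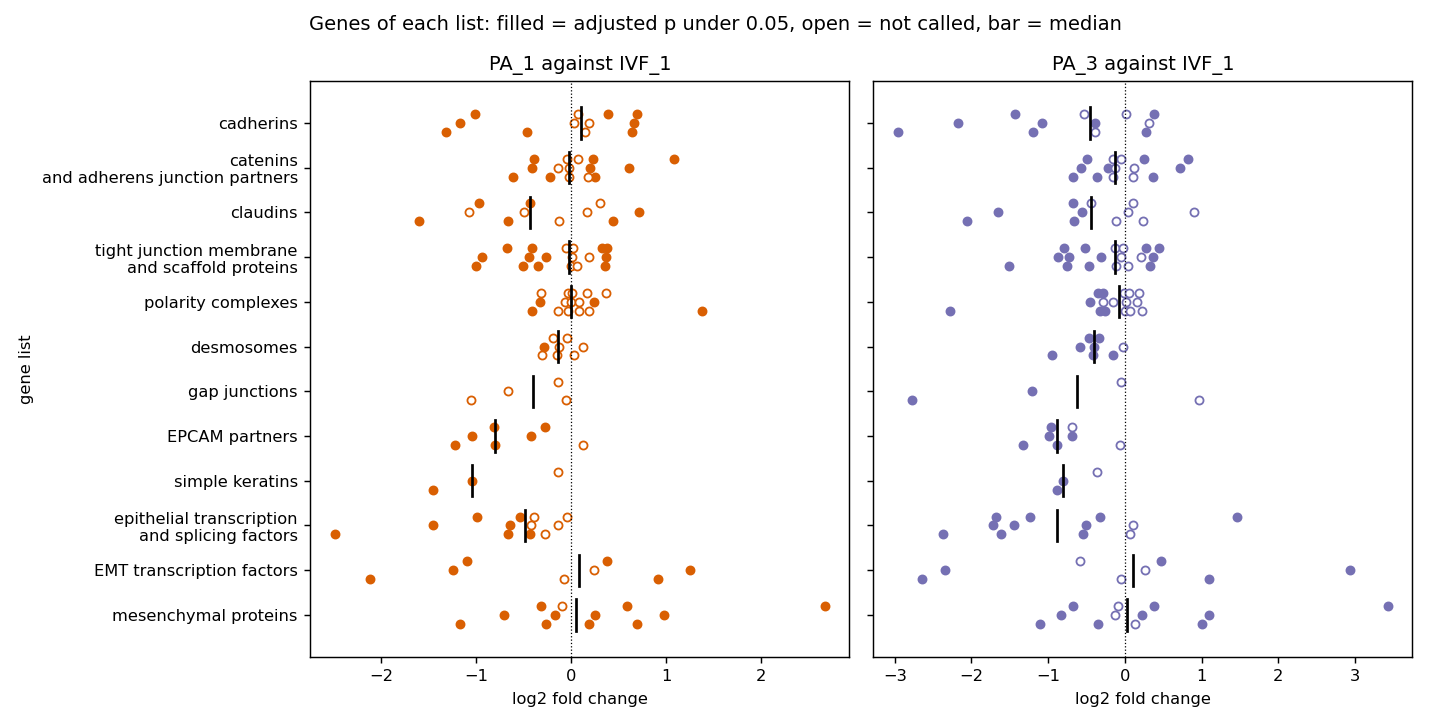
Log2 fold change (x axis) of each tested gene of 12 lists (y axis) in PA_1 against IVF_1 and PA_3 against IVF_1, with filled points for adjusted p under 0.05 and bars at the list medians. Desmosome genes lie near 0 in PA_1 and mostly below it in PA_3, and EMT transcription factors spread to both sides in each line.

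Partners of EPCAM were lower more often than higher. Of 7 tested, EPCAM included, 6 were lower and 0 higher in PA_1 than in IVF_1, 5 lower and 0 higher in PA_3, and 3 higher in PA_1 than in PA_3 and 1 lower. Of all tested genes, 16.1% were lower in PA_1 than in IVF_1 and 26.2% in PA_3. Among the 4514 abundant genes these shares were 21.8% and 36.4%. SPINT1 and SPINT2, inhibitors of the membrane proteases of epithelia, fell by 0.81 and 0.43 in PA_1 (adjusted p = 2.4e-06 and 3.3e-04) and by 1.33 and 0.88 in PA_3 (adjusted p = 3.2e-09 and 7.3e-08). CD9, a tetraspanin, fell by 1.23 and 0.96 (adjusted p = 2.4e-08 and 1.2e-07).

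The keratins of simple epithelia, KRT8 and KRT18, had the lowest levels in PA_1 rather than PA_3. KRT8 stood at 942 and 846 CPM in IVF_1, 433 and 429 in PA_1, and 477 and 544 in PA_3, and KRT18 at 459 ± 31.9, 166 ± 1.73 and 247 ± 26.2 CPM in the same order. Of 3 tested keratins, 2 were lower and 0 higher in each parthenogenetic line than in IVF_1, and 2 were lower in PA_1 than in PA_3 (KRT18 by 0.57, adjusted p = 2.0e-05; KRT8 by 0.24, adjusted p = 0.015). On deposited TPM the KRT18 difference was -0.27 and not called (limma adjusted p = 0.055, the highest of 14 alternatives that began at 1.1e-14). On the same scale the KRT8 difference between PA_1 and PA_3 turned to 0.064 (limma adjusted p = 0.6, the highest of 14 alternatives). The KRT8 call was also lost without replicate 2 of PA_3 and with nuclear genes rescaled before limma.

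Regulators of the epithelial state were lower more often than higher in both parthenogenetic lines. Of 12 tested epithelial transcription and splicing factors, ESRP1 included, 7 were lower and 0 higher in PA_1 than in IVF_1, 9 were lower and 1 higher in PA_3, and 3 were higher in PA_1 than in PA_3 and 3 lower. Of all tested genes, 16.1% were lower and 15.3% higher in PA_1 than in IVF_1, and 26.2% and 25.9% in PA_3. GRHL2, a transcription factor that activates CDH1 and claudin genes in mouse, stood at 43.3 and 44.8 CPM in IVF_1, 26.5 and 29.7 in PA_1, and 15.4 and 17.1 in PA_3. It fell by 0.65 in PA_1 (SE 0.098, adjusted p = 8.5e-05) and by 1.44 in PA_3 (SE 0.1, adjusted p = 6.8e-09). ESRP2, the paralog of ESRP1, stood at 34.7 and 37.0, 17.6 and 18.4, and 14.2 and 16.1 CPM, a fall of 0.99 and 1.24 (adjusted p = 2.2e-06 and 6.8e-08). Unlike for ESRP1, the difference of ESRP2 between PA_1 and PA_3 was not called (0.25, SE 0.11, adjusted p = 0.083). RBM47, another splicing factor of epithelia, fell by 1.46 and 1.68 (adjusted p = 2.7e-05 and 2.5e-06).

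EMT transcription factors, several of which repress CDH1, did not move one way as a list. Of 8 tested of 10 listed, 3 were higher in PA_1 than in IVF_1 and 3 lower, 3 higher and 2 lower in PA_3, and 3 higher in PA_1 than in PA_3 and 3 lower. Every SNAI or ZEB gene called against IVF_1 was higher, SNAI2, ZEB1 and ZEB2 in PA_1 and SNAI1, SNAI2 and ZEB1 in PA_3. The lower genes of the list were TWIST2, PRRX1 and, in PA_1 only, GSC. The ZEB2 call in PA_1 and the SNAI1 call in PA_3 were lost in both limma fits on TPM, and that of SNAI1 also with DESeq2. The other settings in which these SNAI and ZEB calls were lost are given below. SNAI2, which encodes SLUG, was low in every line, at 0.544 and 0.458 CPM in IVF_1, 1.29 and 1.09 in PA_1, and 3.74 and 4.04 in PA_3. It rose by 2.94 in PA_3 (SE 0.32, adjusted p = 9.4e-07) and by 1.25 in PA_1 (SE 0.38, adjusted p = 0.017), on 16 counts in IVF_1, 58 in PA_1 and 195 in PA_3. The PA_1 call of SNAI2 was lost without replicate 1 of PA_1 (adjusted p = 0.08), without replicate 1 of IVF_1 (0.083), without replicate 2 of IVF_1 (0.12) and with DESeq2 (0.085), in a range of 0.004 to 0.12. ZEB1 stood at 3.87 and 3.93 CPM in IVF_1, 8.65 and 5.67 in PA_1, and 8.31 and 8.38 in PA_3, a rise of 0.91 and 1.10 (adjusted p = 0.0024 and 2.0e-04).

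ZEB2, which encodes another repressor of CDH1, stood at 68.3 and 75.3 in IVF_1, 79.3 and 107 in PA_1, and 90 and 82.1 CPM in PA_3. It rose in PA_1 by 0.37 (adjusted p = 0.037), a call lost without replicate 2 of PA_1 (adjusted p = 0.12), replicate 1 of IVF_1 (0.2) or replicate 2 of IVF_1 (0.058), in a range of 2.0e-07 to 0.2, and in PA_3 it stood at 0.26 (adjusted p = 0.089). SNAI1, which encodes SNAIL, stood at 5.12 ± 0.112 CPM in IVF_1, 4.72 ± 1.28 in PA_1 and 7.12 ± 0.264 in PA_3. It was called higher in PA_3 than in IVF_1 (0.47, adjusted p = 0.04), but not without any 1 of the libraries of PA_3 and IVF_1 (adjusted p from 0.089 to 0.16, in a range of 0.0083 to 0.39 over 14 alternatives). SNAI1 was also called lower in PA_1 than in PA_3 (-0.56, adjusted p = 0.019), a call lost without replicate 2 of PA_1 (0.12), replicate 1 of PA_3 (0.096) or replicate 2 of PA_3 (0.063), in a range of 3.9e-04 to 0.18. The SNAI1 difference between PA_1 and PA_3 was also not called with DESeq2 or with limma on deposited TPM. In SNAI1 the PA_1 level against IVF_1 was -0.082 (adjusted p = 0.78).

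The genes TWIST2 and PRRX1, named for mesenchymal factors, fell along the order in which CDH1 fell. The table annotates its TWIST2 model as lncRNA, so its counts are not shown to be those of a transcript that encodes the factor. TWIST2 stood at 33.2 and 32.0 CPM in IVF_1, 11.5 and 16.5 in PA_1, and 4.53 and 5.90 in PA_3 (-1.25 and -2.64, adjusted p = 1.2e-05 and 3.2e-09). PRRX1 stood at 17.2 and 17.9, 6.61 and 10.1, and 3.15 and 3.73 CPM (-1.10 and -2.34, adjusted p = 1.1e-04 and 3.2e-08). GSC, the organiser factor goosecoid, fell by 2.12 in PA_1 (adjusted p = 7.3e-04) and stood at -0.58 in PA_3 (adjusted p = 0.15). TCF4 was not called against IVF_1 in PA_1 (0.24, adjusted p = 0.11) or PA_3 (-0.052, adjusted p = 0.72). FOXC2 had 2 counts in IVF_1, 3 in PA_1 and 0 in PA_3 and was not tested, and TWIST1 was not matched in the table.

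**Figure D5:**
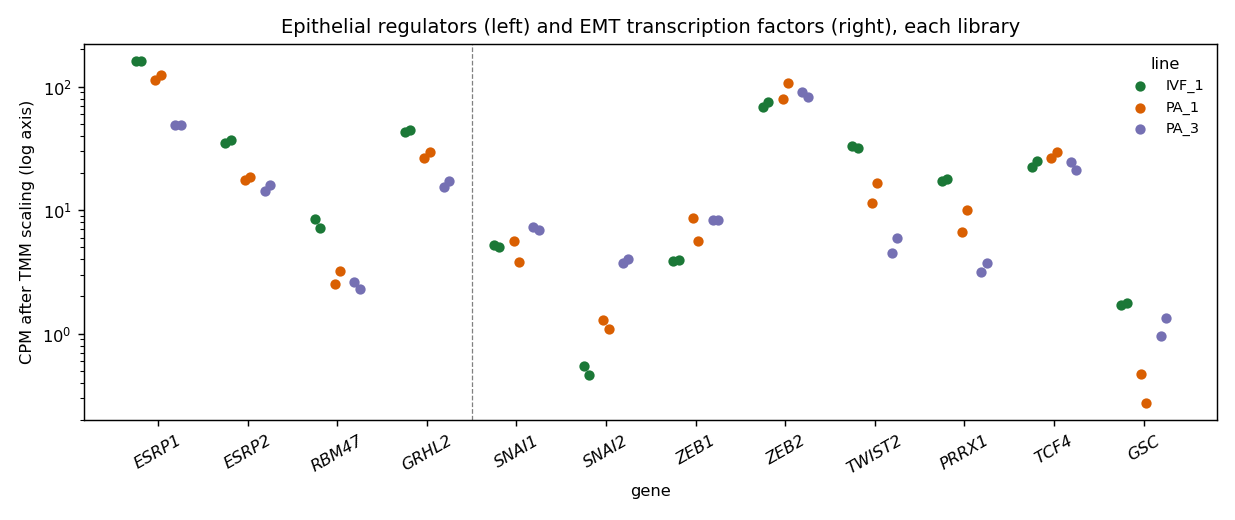
CPM after TMM scaling (y axis, log scale) of 4 epithelial regulators, left of the dashed line, and 8 EMT transcription factors, right of it, with a point for each library coloured by line. ESRP1 and GRHL2 step down from IVF_1 to PA_3, as do TWIST2 and PRRX1, while SNAI2 steps up from 0.544 and 0.458 CPM in IVF_1 to 3.74 and 4.04 in PA_3.

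Mesenchymal protein genes likewise split, so that the rise of VIM and CDH2 was shared by only part of the list. Without VIM and CDH2, 10 genes were tested, of which 4 were higher and 5 lower in PA_1, and 3 higher and 4 lower in PA_3. Of 12 tested, VIM and CDH2 included, 6 were higher in PA_1 than in IVF_1 and 5 lower, 5 higher and 4 lower in PA_3, and 2 higher in PA_1 than in PA_3 and 3 lower. FN1, which encodes fibronectin of the extracellular matrix, stood at 299 and 313 CPM in IVF_1, 276 and 268 in PA_1, and 139.5 and 144 in PA_3, a fall of 1.11 in PA_3 (SE 0.064, adjusted p = 5.9e-10). FN1 was also called lower in PA_1 than in IVF_1, with log2 values of -0.2 to -0.12 over 14 alternatives. That call held in only 1 of the 14 alternatives. Among others, it was lost with DESeq2, with the replicate block, with mitochondrial genes left out and in both limma fits on TPM. TAGLN, which encodes an actin-binding protein of smooth muscle and fibroblasts, fell by 1.17 in PA_1 and 0.67 in PA_3 (adjusted p = 3.2e-07 and 2.9e-05). S100A4, a calcium-binding protein of motile and mesenchymal cells, had 3 counts in IVF_1, 30 in PA_1 and 54 in PA_3, and is named after its values were seen.

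Markers of other cell types were counted because CDH2 and VIM are also high in neural cells and fibroblasts. Of 8 neural markers 7 were matched and tested, and their summed level was 803 to 817 CPM in IVF_1, 993 to 1136 in PA_1 and 932 to 964 in PA_3, above IVF_1 in both lines where CDH2 and VIM were higher. Of these, 4 were higher in PA_1 than in IVF_1 and 0 lower, 3 higher and 3 lower in PA_3, and 3 higher in PA_1 than in PA_3 and 1 lower. NCAM1, a neural adhesion molecule, rose from 46.7 ± 1.86 CPM to 83.0 ± 0.816 and 101 ± 5.19, while PAX6, a neural and eye factor, stood at 47.3 ± 1.37, 72.2 ± 0.523 and 0.295 ± 0.121. Their part in the levels of CDH2 and VIM was not tested. Of 12 fibroblast markers all were in the table and 7 were tested, with summed levels of 93.7 to 94.0 CPM in IVF_1, 97.2 to 108 in PA_1 and 94.2 to 98.0 in PA_3. DPT was at 0 counts in each line, COL6A3 in PA_1 and POSTN in PA_3. Of the fibroblast markers, 1 was higher in PA_1 than in IVF_1 and 0 lower, 2 higher and 3 lower in PA_3, and 4 higher in PA_1 than in PA_3 and 1 lower.

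Markers of extraembryonic and blood or vessel cells were low. Trophoblast markers, 8 in the table and 4 tested, summed to 25.8 to 28.7 CPM in IVF_1, 14.2 to 14.9 in PA_1 and 12.3 to 13.9 in PA_3, with CDX2 and HAND1 at 0 counts in each line and ELF5 in PA_1. Of the 4, 2 were lower and 0 higher in each parthenogenetic line than in IVF_1, and 1 was higher in PA_1 than in PA_3 and 1 lower. Hypoblast markers, 6 of 6 tested, summed to 14.5 to 14.8 CPM in IVF_1, 7.37 to 8.31 in PA_1 and 23.6 to 29.6 in PA_3, with 3 lower in PA_1, 1 higher and 2 lower in PA_3, and 3 lower in PA_1 than in PA_3. Endothelial and blood markers, 5 of 6 tested, summed to 7.53 to 10.5 CPM over the 6 libraries, with PTPRC at 0 counts in PA_1, 1 lower in each parthenogenetic line than in IVF_1 and 2 lower in PA_1 than in PA_3. Among pluripotent cell markers, 1 was higher in PA_1 than in IVF_1 and 4 lower, 1 higher and 3 lower in PA_3, and 2 higher in PA_1 than in PA_3 and 3 lower. NANOG, a core pluripotency factor, stepped down in the order in which CDH1 did, with 75.0 and 76.5 CPM in IVF_1, 25.9 and 35.3 in PA_1, and 9.95 and 11.3 in PA_3, and its part in the result was not tested. PRDM14, of the same list, went the other way. It was called higher than IVF_1 in both lines and lower in PA_1 than in PA_3. Over 14 alternatives its log2 values against IVF_1 were 0.29 to 0.43 in PA_1 and 0.94 to 1.27 in PA_3. POU5F1 was called lower in PA_1 than in IVF_1 and in PA_3, and was not called in PA_3 against IVF_1. Its call in PA_1 against IVF_1 was lost in both limma fits on TPM, and that against PA_3 with limma on deposited TPM. DNMT3B was called lower than IVF_1 in both parthenogenetic lines and was not called between them.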

How the data were processed

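Poly(A) RNA of 3 pig embryonic stem cell lines, 2 libraries each, was sequenced with a stranded kit in paired 151 bp reads, per the labels' protocols. The submitters' processing notes name cutadapt 2.8, STAR 2.7.1a and build Sscrofa11.1. For the gene counter, its strand setting and the annotation, nothing is given in the sources used here. The authors deposited read counts, RPKM and TPM per gene, per the file headers; RPKM served only to recover gene lengths. A further 54 per-sample columns were not used.

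Counts were tested with edgeR 4.0.16 in R 4.3.3 (filterByExpr, TMM, robust quasi-likelihood, 2-sided, all 6 libraries in 1 fit, 3 residual degrees of freedom), with Benjamini-Hochberg adjustment over 15197 genes and a threshold of 0.05. Every adjusted p is from this fit unless another tool is named. Standard errors and 95% intervals come from the same test. Its calls in PA_3 against IVF_1 were tried on counts simulated with the same dispersion for all genes. The standard errors and intervals were not checked in that way. The counts of all genes and of the 10 genes called, and the values of each tested named gene, were recomputed under 12 other settings, including DESeq2 1.42.0 and limma 3.58.1 on log2(TPM + 1) with a pseudocount of 1, and under 2 more chosen after seeing the data.

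The members and lists were chosen with earlier results of these data known. Of 205 listed symbols 191 were matched. The text could name from each list up to 4 genes with the smallest adjusted p in any comparison, the most abundant gene by TPM, and every measured EMT transcription factor. Intervals cover the spread between libraries only.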

Additional observations from a re-analysis of the deposited data

Results flagged for a closer look

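CDH6, CRB1 and PAX6 were called higher in PA_1 and lower in PA_3 than in IVF_1, and the difference between the PA lines was itself called for each (edgeR). CDH6 differed between PA_1 and PA_3 by 3.35 on the log2 scale (adjusted p = 1.9e-12). Its rise of 0.39 in PA_1 (adjusted p = 0.0081) was not called without replicate 1 of IVF_1 (0.072) or replicate 2 (0.087), in a range of 3.7e-04 to 0.087 over 14 alternatives. PAX6 differed by 7.89 (adjusted p = 9.4e-16), on 5 and 10 counts in the PA_3 libraries. CRB1, a Crumbs polarity protein, differed by 3.64 (adjusted p = 1.5e-04) on 13 counts in IVF_1, 52 in PA_1 and 4 in PA_3. Its call in PA_1 against IVF_1 (1.37, adjusted p = 0.039) held in 6 of 14 alternatives (0.017 to 0.34), and that in PA_3 (-2.28, adjusted p = 0.021) in 7 of 13 (0.016 to 0.17). Both were lost with DESeq2 (0.27 and 0.068), in both limma fits on TPM, and without replicate 1 of PA_3 (0.058 and 0.073), replicate 2 of PA_3 (0.058 and 0.096) or replicate 2 of IVF_1 (0.087 and 0.17). The PA_1 call was also lost without replicate 1 of PA_1 (0.34) or of IVF_1 (0.3).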

How the results depend on the processing

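Over 14 alternatives the 10 genes gave 420 values across 3 comparisons, each with the sign of the reported value: 398 stayed on the same side of the threshold, 21 lost the call and 1 gained it. In PA_1 against IVF_1, 6 of the 10 genes were called with limma on log2(TPM + 1) after rescaling nuclear genes, an alternative added after seeing the data. Leaving out 1 library left 7 to 10 called in that comparison, 7 to 10 in PA_1 against PA_3 and 9 in PA_3 against IVF_1. Over all genes, leaving out 1 library gave 2307 to 5812 calls in PA_1 against IVF_1 (2307 without replicate 1 and 2745 without replicate 2 of IVF_1, reported value 4766) and 3406 to 6496 in PA_1 against PA_3 (3406 without replicate 2 of PA_3, reported value 5595). In PA_3 against IVF_1 it gave 5530 to 9153 (reported value 7920). A line left with 1 library is assumed to vary like the others. With the replicate number as a block, 4677, 7798 and 5461 genes and 10, 9 and 10 of the 10 genes were called in PA_1 against IVF_1, PA_3 against IVF_1 and PA_1 against PA_3. Deviations of same-numbered libraries correlated at -0.136 (PA_1 and PA_3), 0.0857 (PA_1 and IVF_1) and -0.08 (PA_3 and IVF_1), so the numbers were not taken to pair the libraries. Among 2893 values of 69 other named genes that were tested, 2678 kept their side, 150 lost the call, 62 gained it and 3 reversed. These were CD9 at 0.026, KRT8 at 0.064 and NCAM1 at 0.011 in PA_1 against PA_3 with limma on log2(TPM + 1), a scale on which the median of all genes was 0.23. The cause of the other changes was not tested. Low counts limit SNAI2, CRB1 and S100A4.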
